A study of Homo sapiens with 3 samples.

Results

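AHNAK, the plakins and the spectrins are very large cytoskeletal scaffold proteins, and 10 of their genes, including that of the small AHNAK partner S100A10, were followed among the 50868 genes of a table from HGC-27 cells. They are AHNAK, AHNAK2, S100A10, PLEC, MACF1, DST, DSP, EPPK1, SPTAN1 and SPTBN1. The genes were chosen by name and family, and AHNAK was selected on its measured values, since it was lower than control in both knockdown libraries. Its ratios below are therefore a description and not a test. HGC-27 is an established human line from an undifferentiated gastric carcinoma. All cultures were transfected for 48 h, at passage 6, with 1 of 3 small interfering RNAs: a control (labelled n.c.), one targeting IRF3, which switches on interferon genes upon viral infection, or one targeting YAP, the coactivator restrained by Hippo signalling. A single RNA sequencing library stands for each siRNA, and therefore the differences have no replicate check. In bulk RNA, fewer cells of a kind and less RNA per cell cannot be told apart.

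AHNAK is a scaffold beneath the plasma membrane that binds the complex of S100A10 and annexin A2 as well as calcium channel subunits, and AHNAK2 is its relative. Plakins tie filament systems to each other and to junctions. Plectin (PLEC) joins intermediate filaments to actin and to hemidesmosomes, desmoplakin (DSP) joins them to desmosomes, and epiplakin (EPPK1) binds keratins. MACF1 and dystonin (DST) are spectraplakins, which couple actin to microtubules. Alpha spectrin (SPTAN1) and beta spectrin (SPTBN1) pair into the tetramers of the membrane skeleton.

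YAP acts on DNA through TEAD factors, and IRF3 binds interferon response elements, so the 250 bases upstream of the RefSeq gene starts (GRCh38.p14) were searched on both strands for the TEAD core CATTCC and for the element GAAANNGAAA. The RefSeq table matched 8 of the 10 genes, with 14 starts, and held no entry for PLEC and EPPK1. A TEAD core was present at 2 of the 14 starts, 1 each of DST and MACF1, beside 11.9% of 35116 starts of all genes. The second element was present at none of the 14, beside 3.02% of all. The windows of AHNAK, which had the lowest ratio to control, and of DST, where a core was found, are shown 5′ to 3′ on the coding strand, with the core in capitals. Each of these genes is shown with 1 window. The AHNAK window lies inside the GENCODE span of the gene (62433542 to 62556235), so it is upstream of an internal start. A match or its lack describes these letters only.
AHNAK (chr11:62545827-62546076, minus strand): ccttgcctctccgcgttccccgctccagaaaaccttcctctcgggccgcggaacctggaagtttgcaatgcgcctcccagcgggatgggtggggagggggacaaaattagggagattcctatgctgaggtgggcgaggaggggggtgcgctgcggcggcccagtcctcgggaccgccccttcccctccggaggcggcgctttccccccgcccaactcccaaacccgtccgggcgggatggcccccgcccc
DST (chr6:56954831-56955080, minus strand): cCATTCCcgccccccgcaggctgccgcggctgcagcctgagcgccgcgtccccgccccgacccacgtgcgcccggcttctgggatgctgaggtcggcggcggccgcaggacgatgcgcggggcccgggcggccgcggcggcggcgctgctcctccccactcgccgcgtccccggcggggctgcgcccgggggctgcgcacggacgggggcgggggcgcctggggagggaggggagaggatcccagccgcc

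The libraries held 13949401 (control), 14941556 (IRF3 siRNA) and 14385959 (YAP siRNA) counts assigned to genes. YAP1 stood at 5.89, 3.58 and 2.23 FPKM in that order, and IRF3 at 3.55, 2.90 and 3.86, so the value of the targeted gene was much less reduced in the IRF3 siRNA library. FPKM is the count per kilobase of gene length, scaled to library size. IRF3 overlaps BCL2L12, and the deposited values imply a length of 13757 nt for it, against 3794 nt of GENCODE exon. YAP1 overlaps a clone-named gene, with 10486 against 6296 nt. The IRF3 counts may therefore not come from the IRF3 transcript alone. Of 14 epithelial marker genes 3 reached a mean of 1 FPKM, and EPCAM (5, 7 and 10 counts), CDH1 (6, 2 and 4) and KRT18 (7, 7 and 4) were close to 0. Of 15 mesenchymal genes 11 reached that level, with VIM (511, 451 and 469 FPKM) and COL1A1 (266, 229 and 222 FPKM) high, and CDH2 (5, 7 and 12 counts), ZEB1, ZEB2 and FAP below it. Of 10 leukocyte markers, CD3D and MS4A1 had no counts in any library. Summed over each list, the epithelial markers came to between 10.7 and 12.5 FPKM, the mesenchymal markers to 1488, 1345 and 1413 and the leukocyte markers to 1.35, 1.99 and 1.31, and their part in the results was not tested.

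AHNAK (ENSG00000124942, chromosome 11, 62433542 to 62556235, minus strand, hg38) and AHNAK2 (ENSG00000185567, chromosome 14, 104937244 to 104978357, minus strand) share an unusual build. In the longest coding transcript of AHNAK, 98.1% of the coding sequence lies in 1 exon of 18170 nt, for a protein of 5890 amino acids. For AHNAK2 the share is 96.3%, in an exon of 17483 nt, for 5795 amino acids. EPPK1 (ENSG00000261150, chromosome 8, 143857324 to 143878464) has its whole coding sequence of 5088 codons in 1 exon, and lies beside PLEC (ENSG00000178209, chromosome 8, 143915147 to 143976734; 4684 amino acids). MACF1 (ENSG00000127603, chromosome 1, 39081316 to 39487177; 7592 amino acids) and DST (ENSG00000151914, chromosome 6, 56457987 to 56954628; 7461 amino acids) spread theirs over 101 and 98 exons. DSP (ENSG00000096696, chromosome 6, 7541575 to 7586717) encodes 2871 amino acids, SPTAN1 (ENSG00000197694, chromosome 9, 128552558 to 128633662) 2498 and SPTBN1 (ENSG00000115306, chromosome 2, 54456285 to 54671445) 2366. S100A10 (ENSG00000197747, chromosome 1, 151982915 to 151994390) encodes only 97. All 10 genes have the same coordinates in GENCODE release 29.

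The members covered a wide range of levels in control cells. S100A10 was the highest at 204 FPKM, followed by AHNAK at 35.1, SPTAN1 at 18.4, SPTBN1 at 15.1, PLEC at 15.0 and AHNAK2 at 9.46. DSP (2.88), MACF1 (2.01) and DST (0.274) were low, and EPPK1 had 3 counts in control and 1 in each knockdown library, at or under the floor of 3 counts used for a missing signal, so no fold is given. With IRF3 siRNA the order of the giants changed, with PLEC (15.3 FPKM) and SPTAN1 (15.2) above AHNAK (10.7). The same held with YAP siRNA, with SPTAN1 at 14.4, PLEC at 13.2 and AHNAK at 11.5 FPKM. The spread between cultures is unknown, so neighbours as close as PLEC and SPTBN1 in control cannot be ranked.

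**Figure D1:**
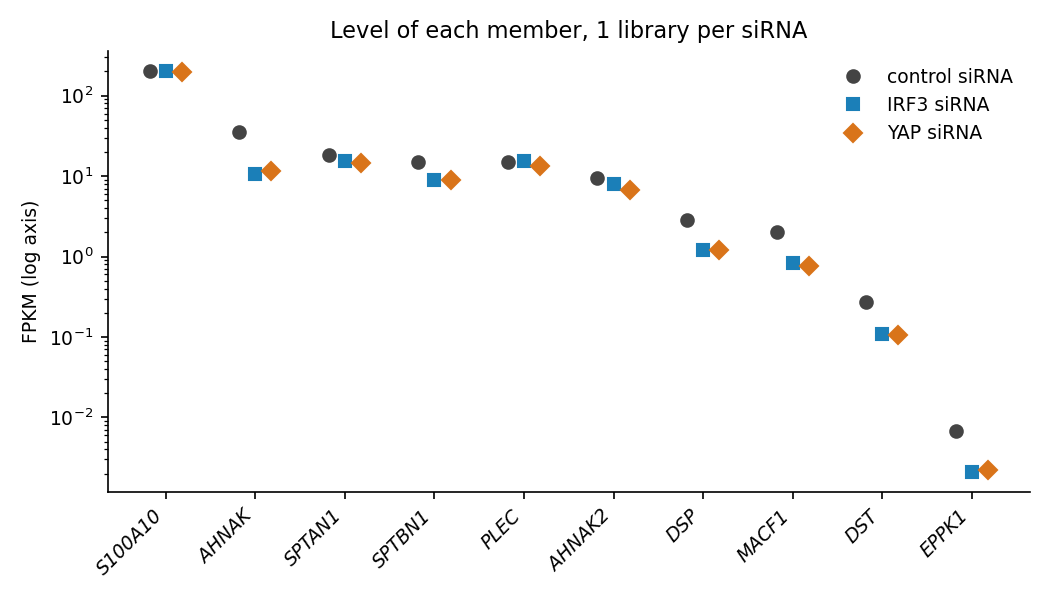
FPKM of the 10 members on a log axis, with 1 point per library (circle, control siRNA; square, IRF3 siRNA; diamond, YAP siRNA). S100A10 keeps nearly the same level in all 3 libraries, while AHNAK, DSP, MACF1 and DST have both knockdown points well below control.

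These levels rest on the gene length that the authors used, which the deposited FPKM and counts imply. It exceeded the union of GENCODE exons in every member, and was 1.09 times that union for AHNAK (21311 against 19465 nt) and 2.20 times for AHNAK2 (41323 against 18771 nt), with PLEC at 1.85. Per kilobase of GENCODE exon, AHNAK2 stood at 20.8 CPM (counts scaled to library size) in control, above SPTBN1 (18.9), and PLEC at 27.8, above SPTAN1 (25.0). AHNAK, at 38.4 CPM per kilobase in control, was then 11.8 with IRF3 siRNA and 12.6 with YAP siRNA, below AHNAK2 (17.4 and 14.9) in both knockdowns. CPM ratios of a gene between libraries do not depend on this length, while the ratios of FPKM plus a pseudocount and the FPKM filter used below do.

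AHNAK had counts of 10434 (control), 3418 (IRF3 siRNA) and 3534 (YAP siRNA), or 35.1, 10.7 and 11.5 FPKM. Both knockdown libraries were low and close to each other. On the log2 scale of FPKM plus a pseudocount of 1, AHNAK fell by 1.62 with IRF3 siRNA and by 1.53 with YAP siRNA. The ratio of CPM to control was 0.306 (95% counting interval 0.294 to 0.318) and 0.328 (0.316 to 0.341). These intervals are exact (Clopper-Pearson), cover counting error only and say nothing of variation between cultures. Among 11103 genes with a mean of at least 1 FPKM, AHNAK ranked 12 from the lowest log2 ratio with IRF3 siRNA and 9 with YAP siRNA.

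AHNAK2, with a like protein length and exon build, had 5455, 4875 and 4030 counts (9.46, 7.90 and 6.78 FPKM). Its CPM ratio was 0.834 (0.803 to 0.867) with IRF3 siRNA and 0.716 (0.688 to 0.746) with YAP siRNA. The counts of AHNAK were 1.91 times those of AHNAK2 in control, 0.701 times with IRF3 siRNA and 0.877 times with YAP siRNA, so the ratio within the pair was at least 2-fold lower in both knockdowns. S100A10, the AHNAK partner, had 6242, 6611 and 6301 counts and stayed at 204, 202 and 200 FPKM. Its CPM ratios were 0.989 (0.955 to 1.02) and 0.979 (0.945 to 1.01), both intervals include 1, and the sign of its log2 ratio turned with TMM scaling. Annexin A2 (ANXA2), the other subunit of the S100A10 complex, had log2 ratios of -0.07 (IRF3 siRNA) and 0.10 (YAP siRNA), at 50.8, 48.5 and 54.5 FPKM.

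The spectraplakins were low but had enough counts for a ratio. MACF1, with 1740, 763 and 684 counts (2.01, 0.824 and 0.767 FPKM), had CPM ratios of 0.409 (0.375 to 0.446) in the IRF3 knockdown and 0.381 (0.348 to 0.417) in the YAP knockdown. DST, with 212, 89 and 84 counts, had 0.392 (0.302 to 0.504) and 0.384 (0.295 to 0.497). MACF1 counts were 8.21, 8.57 and 8.14 times those of DST in control, IRF3 siRNA and YAP siRNA, so the ratio of this pair was nearly the same in all 3 libraries. DST stayed below a mean of 1 FPKM and was not among the 11103 genes. The pseudocount shrinks such low genes: the log2 ratios of MACF1 on the FPKM plus 1 scale were -0.72 and -0.77.

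Of the other plakins, DSP had 613, 278 and 266 counts (2.88, 1.22 and 1.21 FPKM). Its CPM ratios were 0.423 (0.366 to 0.489) in the IRF3 knockdown and 0.421 (0.363 to 0.487) in the YAP knockdown, and its log2 ratio was -0.81 in both. PLEC had 6579, 7195 and 5996 counts (15.0, 15.3 and 13.2 FPKM). With IRF3 siRNA its CPM ratio was 1.02 (0.987 to 1.06), an interval that includes 1, and with YAP siRNA it was 0.884 (0.853 to 0.915). PLEC, which is structurally close to MACF1 and DST, had a ratio near 1 where theirs were below 0.5. PLEC had 3.78 times the counts of MACF1 in control cells and 9.43 and 8.77 times in the IRF3 and YAP knockdowns.

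The spectrin pair also moved unequally. SPTBN1 had 4887, 3130 and 3000 counts (15.1, 9.03 and 8.99 FPKM), for CPM ratios of 0.598 (0.572 to 0.626) in the IRF3 knockdown and 0.595 (0.569 to 0.623) in the YAP knockdown. SPTAN1 had 5655, 5021 and 4576 counts (18.4, 15.2 and 14.4 FPKM), for 0.829 (0.798 to 0.861) and 0.785 (0.754 to 0.816). SPTBN1 counts were 0.864 times those of SPTAN1 in control, 0.623 times with IRF3 siRNA and 0.656 times with YAP siRNA. SPTAN1 overlaps the end of WDR34 and a clone-named gene on the opposite strand, the sources used here give no strand setting for the counts, and with overlapping genes summed its log2 ratio turned from -0.26 to 0.21 with IRF3 siRNA and from -0.33 to 0.06 with YAP siRNA. SPTBN1 overlaps clone-named antisense genes and AHNAK2 overlaps PLD4, but summing moved their log2 ratios by less than the counting interval (SPTBN1 to -0.72 in both knockdowns, AHNAK2 to -0.23 and -0.41).

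**Figure D2:**
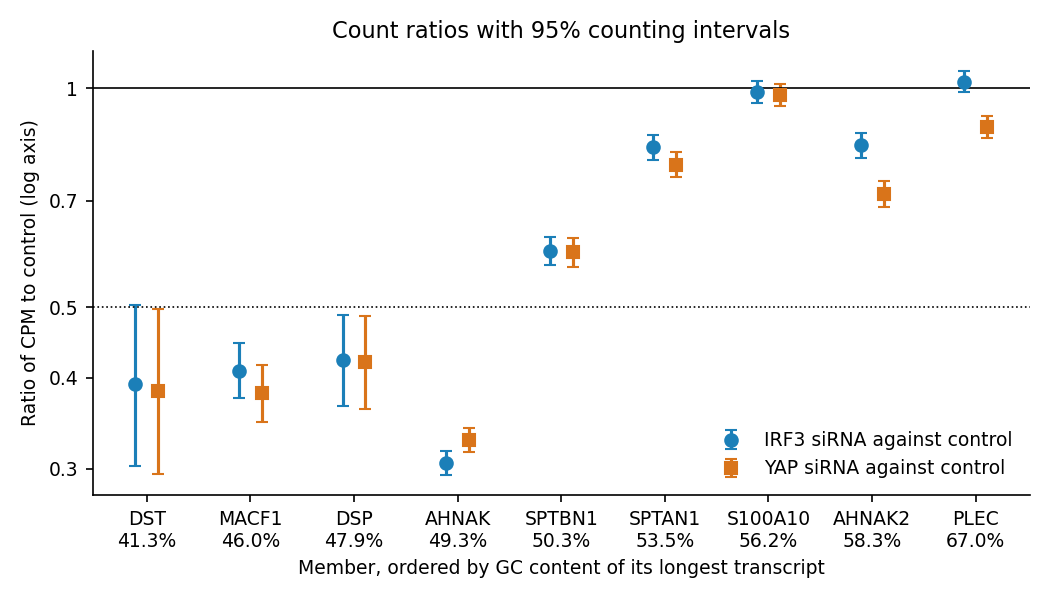
Ratio of CPM to control for the 9 members with at least 100 counts in all, on a log axis with 95% counting intervals, ordered by GC content (printed under each name; circles, IRF3 siRNA; squares, YAP siRNA; dotted line, 0.5). The 4 members of lowest GC content lie below 0.5 in both knockdowns, with the upper bound of DST at 0.504 for IRF3 siRNA, and the others above it.

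Counted together, 1 of the 8 members with a mean of at least 1 FPKM, AHNAK, was at least 2-fold lower on the FPKM plus 1 scale with IRF3 siRNA, beside 0.612% of 11103 genes, and the same member with YAP siRNA, beside 0.468%. Since AHNAK was chosen for this, nothing is read from that count. Without the pseudocount, on CPM ratios of genes with at least 100 counts over the libraries, a scale added after seeing the data, 4 of 9 members (AHNAK, MACF1, DST and DSP) were at least 2-fold lower in each knockdown, beside 5.66% of 13027 genes with IRF3 siRNA and 4.88% with YAP siRNA. AHNAK is 1 of these 4, and the shares are over genes of all lengths. Genes with a long coding sequence of low GC content had median CPM ratios of 0.479 and 0.496 (below). Nothing is therefore read from this count either. On counts alone, with library totals as the scale, 101 of the 11103 genes were at least 2-fold higher and 328 lower with IRF3 siRNA. TMM scaling raised the median gene by 0.10 on the log2 scale and changed that split to 127 and 233, and DESeq2 size factors raised it by 0.11. For YAP siRNA the split went from 115 higher and 294 lower to 134 and 210 with TMM, a shift of 0.09. No member was 2-fold higher under any of these scalings. The median log2 ratio of the 8 members was -0.47 with IRF3 siRNA and -0.56 with YAP siRNA, beside -0.03 and -0.02 over all kept genes. Both knockdowns are set against the same control library, so a deviation of that library and an effect of both siRNAs cannot be told apart.

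The direct comparison leaves the control out. No member was 2-fold lower in the IRF3 library than in the YAP library, beside 0.315% of genes. AHNAK had a CPM ratio of 0.931 (0.888 to 0.976), AHNAK2 1.16 (1.12 to 1.21) and PLEC 1.16 (1.12 to 1.20). The intervals of S100A10, MACF1, DST, DSP and SPTBN1 include 1, and that of SPTAN1 (1.01 to 1.10) lies just above it. Apart from AHNAK, each of the kept members had a log2 ratio above 0.

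Exon length was examined next, since 7 of the 8 kept members lie in the longest of 10 equal groups of genes (union exon length of 9130 to 40739 nt). The median log2 ratio went down from 0.11 in the second shortest group to -0.24 in the longest with IRF3 siRNA, and from 0.12 to -0.21 with YAP siRNA. Across 11066 genes, which are not replicates, Spearman's rho with exon length was -0.34 and -0.37, and 0.01 in the direct comparison. With GC content of the longest transcript, rho was 0.40 and 0.28, and it was still 0.26 in the direct comparison. The middle 50% of the longest group ran from -0.47 to -0.02 with IRF3 siRNA and from -0.44 to -0.03 with YAP siRNA. AHNAK, MACF1, DSP and SPTBN1 lay below this range in both knockdowns, while AHNAK2 and SPTAN1 lay within it, as did PLEC with YAP siRNA. PLEC with IRF3 siRNA (0.03) lay above it. Of the 1107 genes in the group, 1 was lower than AHNAK with IRF3 siRNA and 0 with YAP siRNA.

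**Figure D3:**
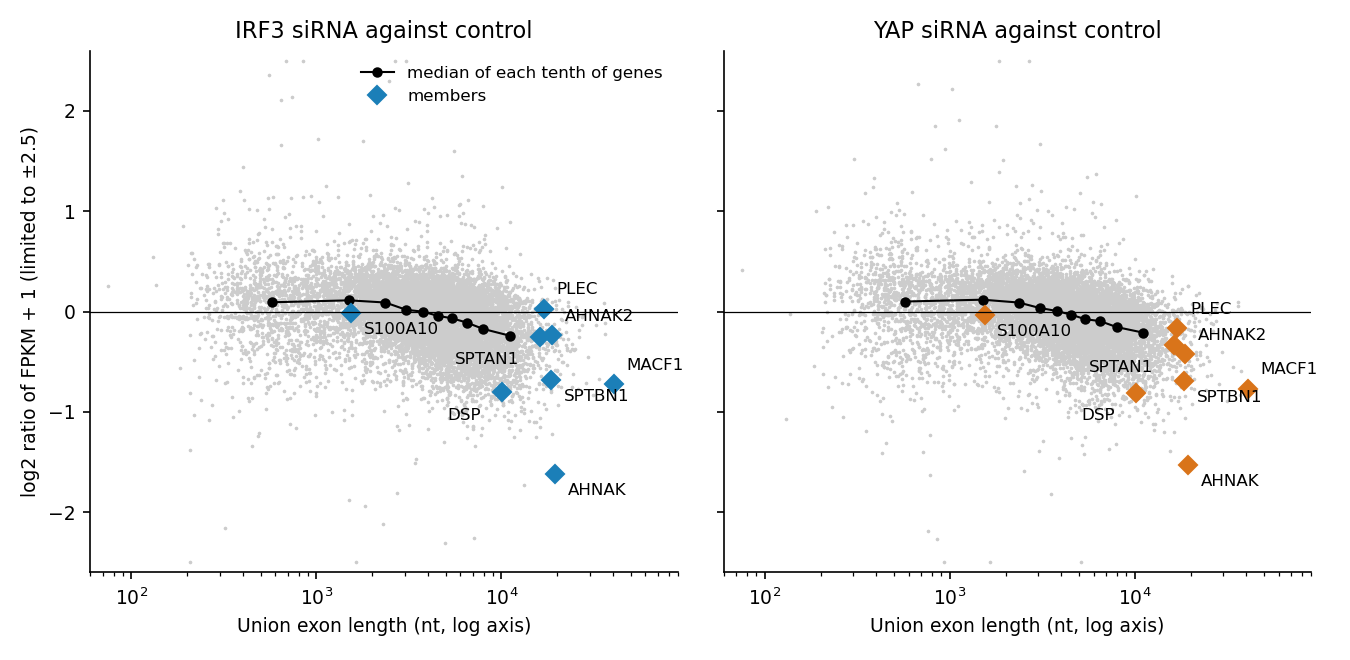
Log2 ratio of FPKM plus 1 to control against union exon length (log axis) for 11066 genes (grey), with the median of each of 10 groups by length (black line) and the 8 kept members (diamonds); left, IRF3 siRNA, right, YAP siRNA, with values limited to ±2.5. The medians slope down with length, and AHNAK lies far below the longest group's median.

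Length alone did not order the members. The genes next to AHNAK in exon length, SCARB2 (19341 nt) and SORL1 (19449 nt) below it and TMED3 (19470 nt) and ST3GAL3 (19475 nt) above it, had log2 ratios of -0.31, -0.59, 0.23 and 0.10 with IRF3 siRNA and -0.17, -0.53, 0.26 and 0.25 with YAP siRNA. DSP, the shortest of the giants with 10093 nt of exon, had a lower CPM ratio than PLEC (16991 nt) and AHNAK2 (18771 nt). By GC content of the longest transcript the members below 0.5 and the others did not overlap, a narrow split seen in these same data. The 4 members below 0.5 had 41.3% (DST), 46.0% (MACF1), 47.9% (DSP) and 49.3% (AHNAK), and the other 5 ran from 50.3% (SPTBN1) to 67.0% (PLEC). Within the 4, AHNAK had the lowest ratio and the highest GC content. Over these 9 genes Spearman's rho of the CPM ratio with GC content was 0.88 (IRF3 siRNA) and 0.80 (YAP siRNA), and with exon length -0.65 and -0.73. These are descriptions of 9 genes from the same 3 libraries.

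Among long genes in general the ratios also varied with GC content. Within the longest group, the 222 genes of highest GC content had median log2 ratios of -0.02 (IRF3 siRNA) and -0.07 (YAP siRNA), and the 221 genes from 46.0% to 50.5% GC had -0.37 and -0.33. Of 124 kept genes with a coding sequence of at least 7000 nt, a limit set after seeing the data so that every kept giant member is included, the 62 of lower GC content (up to 52.1%) had median CPM ratios of 0.479 and 0.496, and the other 62 had 0.847 and 0.839. The middle 50% of the low-GC giants ran from -0.89 to -0.53 on the log2 scale with IRF3 siRNA and from -0.87 to -0.49 with YAP siRNA, and MACF1, DSP and SPTBN1 lay inside both ranges. AHNAK was lower than each of the other 61 in both knockdowns. Among the high-GC giants (-0.34 to -0.03 and -0.41 to -0.10), SPTAN1 lay inside both ranges and AHNAK2 (-0.23 and -0.43) inside the first and PLEC (-0.17) inside the second.

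**Figure D4:**
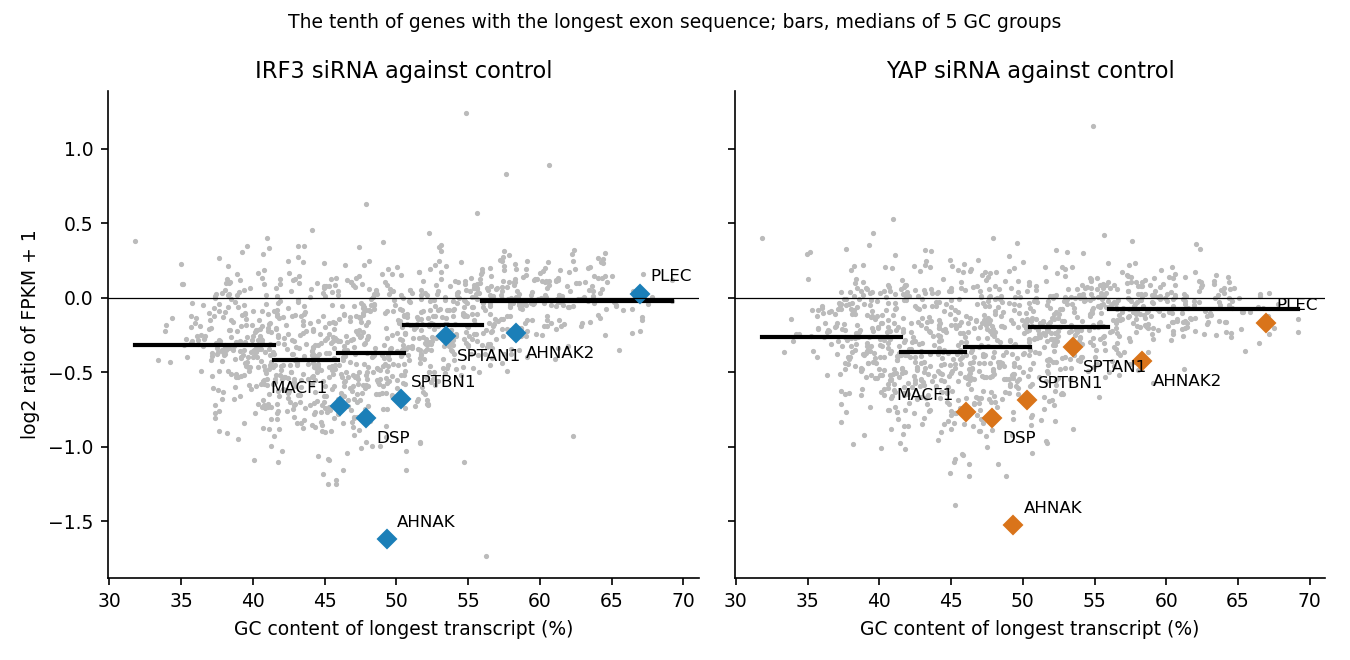
Log2 ratio of FPKM plus 1 to control against GC content for the 1107 genes of the longest group (grey), with the medians of 5 GC groups (black bars) and the 7 members among them (diamonds); left, IRF3 siRNA, right, YAP siRNA. Medians are near 0 above 56% GC and lowest between 41% and 51%, and AHNAK lies far below its own GC group.

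With the additive trend in level, exon length and GC content removed, the log2 ratio of AHNAK was -1.42 with IRF3 siRNA and -1.33 with YAP siRNA, still past 2-fold. MACF1 went to -0.35 and -0.49, DSP to -0.56 and -0.57 and SPTBN1 to -0.48 and -0.49. AHNAK2 (-0.15 and -0.29), SPTAN1 (-0.14 and -0.19) and PLEC (0.06 and -0.05) were nearer 0, and S100A10, at the short and highly expressed end of that trend, went from -0.02 to -0.32 and from -0.03 to -0.30. What lies behind the trend, in the cells or in the libraries, was not tested.

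A large coding exon was a further feature that AHNAK shared with other genes. Of 20 kept genes with a coding exon of at least 5000 nt, 18 had a log2 ratio below 0 with IRF3 siRNA and 19 with YAP siRNA, beside 53.9% and 53.4% of all kept genes, with medians of -0.66 and -0.58. This set of 20 includes AHNAK, which was chosen for its low value. It overlaps the 124 kept genes with a coding sequence of at least 7000 nt. Of those, 109 and 117 were below 0, with medians of -0.43 and -0.44. Whether a large exon matters beyond a long coding sequence was not tested. Of the 20, the genes at least 2-fold lower, beside 0.612% and 0.468% of all kept genes, were AHNAK, FREM2, MAP1B, SON and SRRM2 with IRF3 siRNA and AHNAK, MAP1B, MKI67 and SON with YAP siRNA. AHNAK2, with an exon almost as large as that of AHNAK, had -0.23 and -0.43, and PLEC 0.03 and -0.17.

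The genes whose pair of log2 ratios lay nearest to that of AHNAK, among genes with a mean of at least 5 FPKM, were a clone-named gene (RP11-401P9.4, distance 0.36), PRKDC (0.40), FAM168A (0.50), FAT1 (0.57) and a second clone-named gene (RP11-864I4.1, 0.60). PRKDC, a kinase of DNA end joining, stood at 20.9, 8.20 and 7.36 FPKM, and FAT1, a giant cadherin, at 9.23, 3.60 and 3.45. PRKDC and FAT1 have long exon sequence (15417 and 16177 nt) of 45.3% and 46.3% GC. The others were shorter, with 7887 nt of exon and 50.5% GC for FAM168A, 5197 nt and 56.8% for RP11-864I4.1, and an implied length of 3441 nt for RP11-401P9.4, the gene nearest in its ratios. RP11-864I4.1 lies close to AHNAK on the same strand (chromosome 11, 62559603 to 62591531). It also overlaps EEF1G and TUT1, and what its place means for the likeness was not tested.

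Partners of these scaffolds were read from lists of genes. Among the other plakins and spectrins, 3 of 11 genes were kept, with log2 ratios (IRF3 siRNA first, here and below) of -0.33 and -0.29 for ACTN4 and -0.05 and -0.15 for ACTN1, the non-muscle actinins. Periplakin and envoplakin were below the level filter. Of 12 kept partners of the spectrin skeleton (ankyrins, adducins, protein 4.1 and others), none was past 2-fold, 11 and 10 were below 0, and the medians were -0.38 and -0.35, where 53.9% and 53.4% of all kept genes were below 0. The protein 4.1 genes EPB41 (-0.58 and -0.58), EPB41L5 (-0.51 and -0.38), EPB41L2 (-0.51 and -0.35), EPB41L3 (-0.39 and -0.51) and EPB41L4B (-0.32 and -0.22) were among those below 0, with STOM, ADD2 and TMOD3. ADD1 (0.22 and 0.20) was above 0 in both knockdowns, and MPP1 (-0.06 and 0.13) with YAP siRNA only. The median of the list was -0.16 and -0.09 with the trend removed.

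The annexins, calcium-dependent membrane binders, and the S100 proteins, calcium-binding proteins, have short transcripts and stood on the other side. Of 15 kept genes none was past 2-fold, 5 and 2 were below 0 (53.9% and 53.4% of all kept genes), and the medians were 0.16 and 0.10, or 0.04 and 0.00 with the trend removed. S100A4 (0.40 and 0.32) and S100A16 (0.41 and 0.45) were among the highest, with S100A3 at 0.48 and 0.13 and ANXA9 at -0.58 and -0.40. Of 6 kept AHNAK and S100A10 partners at the membrane, the medians were -0.03 and 0.01. MYOF (myoferlin, of the membrane repair family) had -0.61 and -0.52 and the hyaluronan receptor CD44 -0.24 and -0.08. PRX (periaxin) had 0.31 and 0.15, and the urokinase receptor PLAUR 0.00 and 0.14.

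Junction partners were few in these cells. Of 16 desmosome and cornified envelope genes 3 were kept: the cadherin DSG2 (-0.75 and -0.56), the armadillo protein PKP4 (-0.52 and -0.44) and PERP (-0.09 and 0.14). The desmosome genes DSG1 and PKP1 and the envelope genes IVL and LOR had no counts in any library. Of 9 genes listed for hemidesmosomes and laminin receptors 5 were kept, and ITGB4 and COL17A1 were below the level filter. ITGA6 had -0.70 and -0.47, ITGB1 -0.56 and -0.32, LAMA3 -0.34 and -0.44 and CD151 0.44 and 0.27. Among 9 kept intermediate filament and lamin genes none was past 2-fold and the medians were 0.00 and -0.09, with SYNM at -0.50 and -0.34, LMNB2 at 0.19 and 0.05, DES (desmin) at 0.33 and -0.12 and KRT10 at -0.13 and -0.18. Vimentin, the main filament that plectin could bind here, had -0.18 and -0.12.

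Microtubule tip and nuclear envelope partners of the spectraplakins (10 kept, none past 2-fold) had medians of -0.22 and -0.18. CLASP1, which stabilises microtubule ends, had -0.89 and -0.93 with CPM ratios of 0.412 and 0.395, SUN2 of the nuclear envelope 0.65 and 0.57, SYNE3 -0.54 and -0.48 and NAV1 -0.34 and -0.53. The 8 calpain genes, proteases that cut spectrin, had medians of -0.09 and -0.13 (CAPN7 -0.50 and -0.28, CAPN15 0.31 and 0.08, CAPN2 -0.21 and -0.18, the inhibitor CAST -0.45 and -0.35). A list of 39 kept genes of other giant proteins had medians of -0.56 and -0.55, close to those of the members, with 36 and 37 below 0 (53.9% and 53.4% of all kept genes) and 3 at least 2-fold lower in each knockdown (0.612% and 0.468% of all kept genes). SRRM2 (-1.73 and -0.42), PRKDC (-1.25 and -1.39), FAT1 (-1.15 and -1.20) and MKI67 (-0.99 and -1.12) led it.

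**Figure D5:**
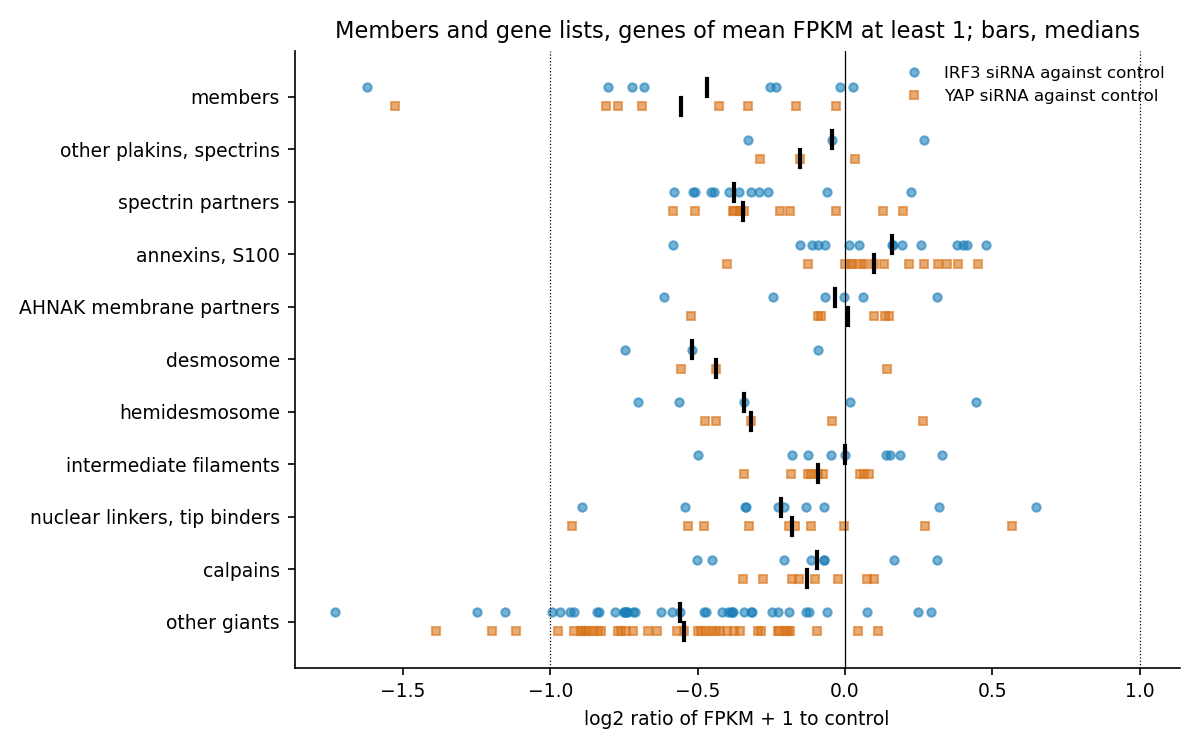
Log2 ratio of FPKM plus 1 to control for the kept genes of the members and of each list (circles, IRF3 siRNA; squares, YAP siRNA; black bars, medians; dotted lines, 2-fold). The other giants spread over the same range as the members, with medians of -0.56 and -0.55, while annexins and S100 proteins lie mostly above 0.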

How the data were processed

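RNA sequencing covered 3 cultures of HGC-27, 1 per siRNA. The authors deposited FPKM and raw counts for each library, per the file headers. Reads were aligned with TopHat2 version 2.0.9 to hg38, per the submitters' processing notes, and the sources used here do not name the counter, the annotation release or the strand setting. Of 45223 nonzero FPKM values, 100% were within 1% of the count scaled by an implied gene length and the column total. Log2 ratios used FPKM plus a pseudocount of 1 for 11103 genes with a mean of at least 1 FPKM, and a gene was called at 2-fold. CPM ratios came from the counts, with 95% Clopper-Pearson intervals. With 1 library per group no test was possible.

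Exon length, coding length and GC content (of the longest transcript) came from GENCODE release 29, for 11066 of the kept genes. Trends were B-splines with 4 degrees of freedom per feature, and the steps were tested on simulated data. The members, the 13 other lists and the other settings were chosen with earlier results of these data known. Named genes are the members, up to 4 kept genes per list with the largest ratio in either knockdown, the 5 genes nearest to AHNAK in both ratios, and 2 genes on each side of it in exon length. ANXA2, VIM and COL1A1, the other protein 4.1 and skeleton genes, the marker genes near 0 and the genes with a coding exon of at least 5000 nt were named after their values were seen. So were ITGB4 and COL17A1. Of the lists, the mesenchymal genes (11 kept) had medians of -0.21 and -0.12 in the IRF3 and YAP knockdowns (THY1 0.95 and 0.30, TWIST1 0.61 and 0.77) and the epithelial genes 0.22 and 0.18 (MUC1 0.33 and 0.02). Some kept list genes are not reported here. Software was R 4.3.3 with edgeR 4.0.16 and DESeq2 1.42.0, and Python 3.11.15 with patsy 1.0.2, pandas 2.3.3, scipy 1.17.1, numpy 2.4.6 and matplotlib 3.10.9.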

Additional observations from a re-analysis of the deposited data

How the results depend on the processing

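The log2 ratio of AHNAK stayed past 2-fold under each of the 7 other settings run for it, from -1.70 to -1.34 with IRF3 siRNA and from -1.60 to -1.25 with YAP siRNA. The number of members at least 2-fold lower, 1 in each knockdown, became 3 in each with a pseudocount of 0.1 FPKM, with TMM-scaled counts and with DESeq2 size factors, where MACF1 and DSP passed as well, and 4 on CPM ratios with at least 100 counts, which have no pseudocount and no FPKM filter. At 1.5-fold it was 4 in each, and at 3-fold it was 1 with IRF3 siRNA and 0 with YAP siRNA. Signs turned for members close to 0: AHNAK2 with IRF3 siRNA (0.04) and PLEC with YAP siRNA (0.10) with the length trend removed, and S100A10 with TMM-scaled counts (0.09 and 0.06). SPTAN1 with IRF3 siRNA turned to 0.01 with the length trend removed. The correlation with exon length in the direct comparison, 0.0106, was 0.0329 with the implied length, 0.00659 with the lower pseudocount, -0.0149 in protein-coding genes and 0.0203 above 5 FPKM. No paired analysis was possible because each siRNA had 1 library, and no library could be left out. The low counts of DST and EPPK1 limit what can be said of them.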
